A study of Mus musculus with 6 samples.

Results

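The crypt base stem cell and Wnt target genes described here are 10 genes, Lgr5, Ascl2, Smoc2, Rgmb, Sox9, Axin2, Rnf43, Znrf3, Ephb3 and Myc, out of 46078 genes in the count table. They were taken by symbol, and all 10 were found and passed the filter on low counts. The first 5 are treated as stem cell markers and the other 5 as general Wnt targets, a split chosen for this work. Total RNA of colon epithelial cells came from unchallenged mice aged 2 months, in 3 Lingo2-/- libraries and 3 wild type libraries. These are the cells that a wash with EDTA and DTT releases from the tissue. The labels give the mutant genotype only as Lingo2-/-, and the sources used here do not say how the allele was made. Nothing says that replicates are separate animals, so each p-value reads only the library-to-library spread, possibly a technical one.

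The colon epithelium is renewed from stem cells at the base of its crypts, which carry the receptor Lgr5. Wnt proteins from the surrounding stroma stabilise beta-catenin in these cells, and beta-catenin then acts with TCF factors to switch on target genes. R-spondins, bound by Lgr4 and Lgr5, prolong the signal by removing Rnf43 and Znrf3, a pair of ubiquitin ligases that take Frizzled receptors off the cell surface. Axin2, Rnf43 and Znrf3 are themselves targets and close a negative feedback loop. BMP signalling opposes Wnt along the crypt axis and favours differentiation.

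Lingo2 had 1, 1 and 0 reads in Lingo2-/- replicates 1, 2 and 3 and 0, 7 and 0 reads in wild type replicates 1, 2 and 3. It was therefore near the floor in both genotypes and its reads do not check the labels. Reads on genes numbered 7060769 to 13047682 in Lingo2-/- libraries and 25010618 to 28029583 in wild type libraries. A count of 3 reads, the limit that a count of 0 allows, came to 0.207 to 0.373 CPM (a gene's reads scaled to a common library size with TMM factors) in Lingo2-/- and 0.112 to 0.138 CPM in wild type libraries. The share of alignments outside genes was 23.6% to 27.6% in Lingo2-/- and 18.5% to 22.1% in wild type libraries. The mitochondrial share of gene reads was 35.7% to 39.8% in Lingo2-/- and 45.3% to 48.4% in wild type libraries. Apart from 1 fit without mitochondrial, haemoglobin and immunoglobulin genes, given with the other settings below, whether these differences bear on the values was not tested.

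Among the 10 genes, 3 were higher in Lingo2-/- libraries at an edgeR adjusted p under 0.05 (quasi-likelihood test), the stem cell markers Rgmb and Sox9 and the Wnt target Myc, by 1.51-fold to 1.68-fold. None was lower by edgeR, at an unadjusted p under 0.05 included, nor by DESeq2 or limma voom. Lgr5, the receptor that defines the stem cells, differed by 1.04-fold and Axin2, the most general Wnt target, by 1.13-fold, and neither passed the test. Over all 16757 tested genes 1.04% were called higher and 1.52% lower, 2.57% in either direction. The median log2 fold change was 0.29 over the 10 genes and 0.00 over all tested genes, with 9 of the 10 genes above 0 and only Smoc2 below. In RNA from a mixed fraction, more cells of a type and more RNA per cell cannot be told apart.

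**Figure D1:**
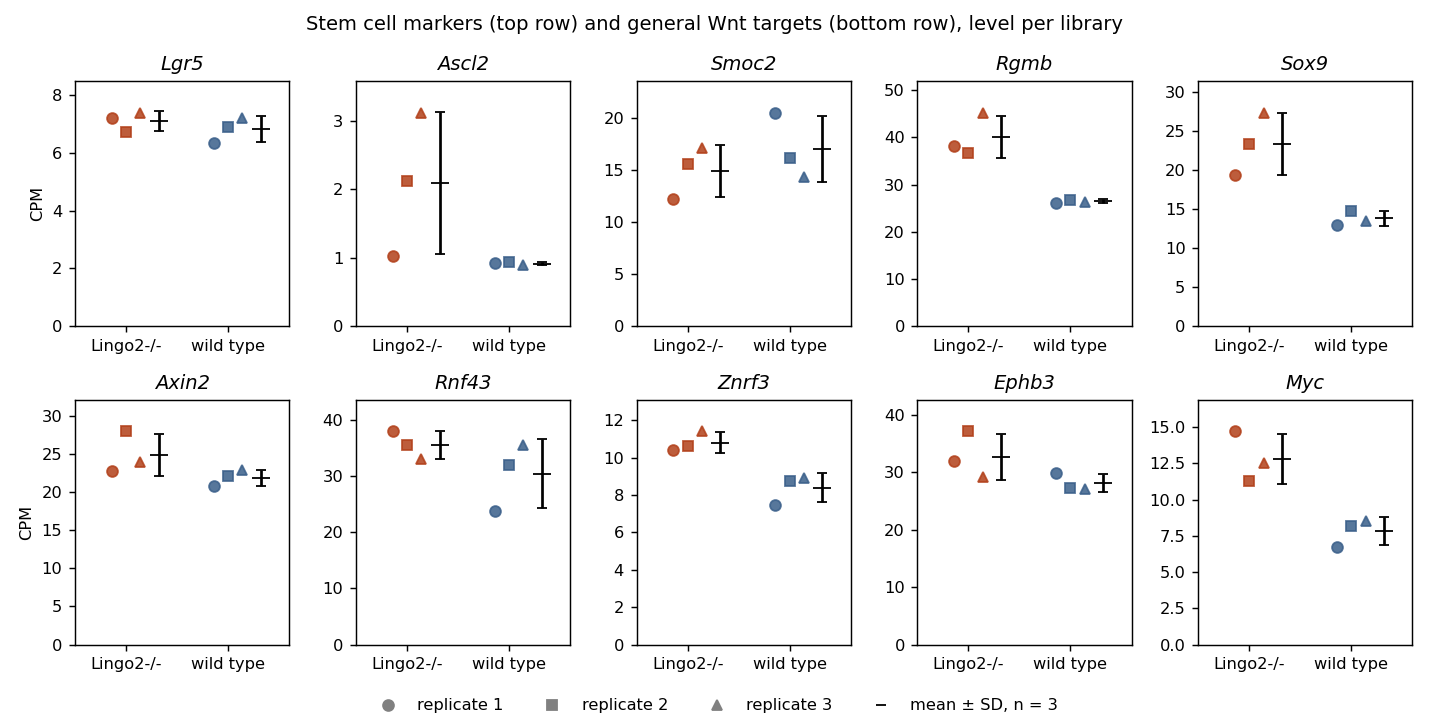
Level of each of the 10 genes in CPM (vertical axes, from 0) in the 3 Lingo2-/- libraries and the 3 wild type libraries, 1 point per library, with the mean ± SD beside them. The Lingo2-/- points lie above every wild type point for Ascl2, Rgmb, Sox9, Znrf3 and Myc and overlap with wild type for the other 5 genes.

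Lgr5 (ENSMUSG00000020140, GRCm38 chromosome 10, 115450311 to 115587780, minus strand) encodes the R-spondin receptor used to trace crypt base stem cells. It had 7.23, 6.72 and 7.39 CPM in Lingo2-/- replicates 1, 2 and 3, against 6.34, 6.89 and 7.23 CPM in wild type replicates 1, 2 and 3. All 6 libraries thus lay within a narrow band and the groups overlapped. The log2 fold change was 0.06 ± 0.15 (SE, n = 3 per genotype, edgeR adjusted p = 0.856), with a 95% interval of −0.26 to 0.38. These levels rest on 54 to 105 reads in Lingo2-/- and 138 to 185 reads in wild type libraries.

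Ascl2 (chromosome 7, 142966829 to 142969264, minus strand), a basic helix-loop-helix transcription factor that sets stem cell fate, was the least expressed of the 10 genes in CPM. It had 1.03, 2.12 and 3.12 CPM in Lingo2-/- replicates 1, 2 and 3, from 15, 17 and 27 reads, against 0.919, 0.931 and 0.893 CPM in wild type replicates 1, 2 and 3, from 20, 25 and 21 reads. The groups did not overlap, but Lingo2-/- replicate 1 lay just above wild type while replicate 3 was 3.02 times as high as replicate 1. The log2 fold change, 1.11 ± 0.38 (SE), had a 95% interval of 0.29 to 1.94 and did not pass (edgeR adjusted p = 0.140). Leaving out Lingo2-/- replicate 1 brought it past the threshold (1.51, edgeR adjusted p = 0.0374), as did testing genes with no filter (edgeR adjusted p = 0.0368).

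Smoc2 (chromosome 17, 14279506 to 14404790, plus strand) encodes a secreted matrix-associated protein that belongs to the Lgr5 stem cell signature. Its levels were 12.2, 15.6 and 17.1 CPM in Lingo2-/- replicates 1, 2 and 3, against 20.5, 16.2 and 14.3 CPM in wild type replicates 1, 2 and 3. The groups overlapped over most of their range (log2 fold change −0.20 ± 0.16, 95% interval −0.55 to 0.16, edgeR adjusted p = 0.544). Smoc2 is also made by stromal cells. Summed over 12 fibroblast markers, the level was 307, 667 and 394 CPM in Lingo2-/- replicates 1, 2 and 3 and 1259, 1163 and 443 CPM in wild type replicates 1, 2 and 3. The order of the wild type libraries was the same for Smoc2 and for this sum, and that of the Lingo2-/- libraries was not. The part of fibroblast RNA in the Smoc2 level was not tested.

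Rgmb (chromosome 17, 15803188 to 15831039, minus strand), a membrane-anchored co-receptor for BMP ligands found in the Lgr5 stem cell signature, rose in Lingo2-/- libraries. Its levels were 38.3, 36.8 and 45.2 CPM in Lingo2-/- replicates 1, 2 and 3, against 26.1, 26.8 and 26.4 CPM in wild type replicates 1, 2 and 3. The wild type libraries were nearly alike and every Lingo2-/- library stood well above them. The log2 fold change was 0.60 ± 0.10 (SE, 95% interval 0.38 to 0.82, edgeR adjusted p = 0.00840). Rgmb stayed past the threshold without any 1 library (log2 fold change 0.50 to 0.64, edgeR adjusted p = 0.0151 to 0.0448).

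Sox9 (chromosome 11, 112782224 to 112787760, plus strand), a transcription factor of crypt base cells and secretory cells, also rose. It had 19.3, 23.3 and 27.3 CPM in Lingo2-/- replicates 1, 2 and 3, against 13.0, 14.8 and 13.5 CPM in wild type replicates 1, 2 and 3. The lowest Lingo2-/- library was above the highest wild type library, and the Lingo2-/- libraries were more spread. The log2 fold change was 0.75 ± 0.13 (SE, 95% interval 0.46 to 1.04, edgeR adjusted p = 0.0118). The call was lost without Lingo2-/- replicate 2 (0.74, edgeR adjusted p = 0.0581) and without Lingo2-/- replicate 3 (0.61, edgeR adjusted p = 0.0584).

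Since Sox9 is shared with secretory cells, the marker list of deep crypt secretory and goblet cells is given beside it. Its summed level was 16537, 17652 and 23215 CPM in Lingo2-/- replicates 1, 2 and 3 and 16461, 13651 and 13720 CPM in wild type replicates 1, 2 and 3. Of its 12 genes, 4 were higher in Lingo2-/- libraries by edgeR and none lower, with a median log2 fold change of 0.66. A log2 fold change above 0 was found for 10 genes and below 0 for 2, Zg16 (−0.42) and Tff3 (−0.32). The goblet cell genes Muc2 (0.05) and Agr2 (0.00) were not called. Muc2 alone had 6778 to 8443 CPM in Lingo2-/- and 6899 to 7755 CPM in wild type libraries, so the sum does not follow the called genes alone. Clca1 (1.13 ± 0.33, edgeR adjusted p = 0.129) had 4211 ± 1492 CPM in Lingo2-/- and 1925 ± 764 CPM in wild type libraries. Fcgbp (0.73 ± 0.25, edgeR adjusted p = 0.152) had 4545 ± 965 and 2749 ± 972 CPM. Furthest from 0 was Reg4 (1.74 ± 0.38, edgeR adjusted p = 0.101). At an unadjusted p under 0.05, 8 were higher and none lower, and DESeq2 called 5 higher and limma voom 6. The transcription factors Spdef (0.84 ± 0.10, edgeR adjusted p = 0.000990), Atoh1 (0.90 ± 0.11, edgeR adjusted p = 0.00115) and Foxa3 (0.59 ± 0.12, edgeR adjusted p = 0.0192) and the secreted protein Spink4 (1.01 ± 0.16, edgeR adjusted p = 0.00905) were the ones called. Foxa3 lost its call without Lingo2-/- replicate 1 or 3 or wild type replicate 2 (edgeR adjusted p = 0.0692, 0.0861 and 0.0587), and the other 3 kept theirs without any 1 library. Among Lingo2-/- libraries the sum stood in the same order as Sox9, with replicate 1 lowest and replicate 3 highest, an order that Ascl2, Smoc2 and Znrf3 shared. Among wild type libraries the orders differed, since replicate 1 was highest for the sum and lowest for Sox9. The part of secretory cell RNA in the Sox9 level was not tested.

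**Figure D2:**
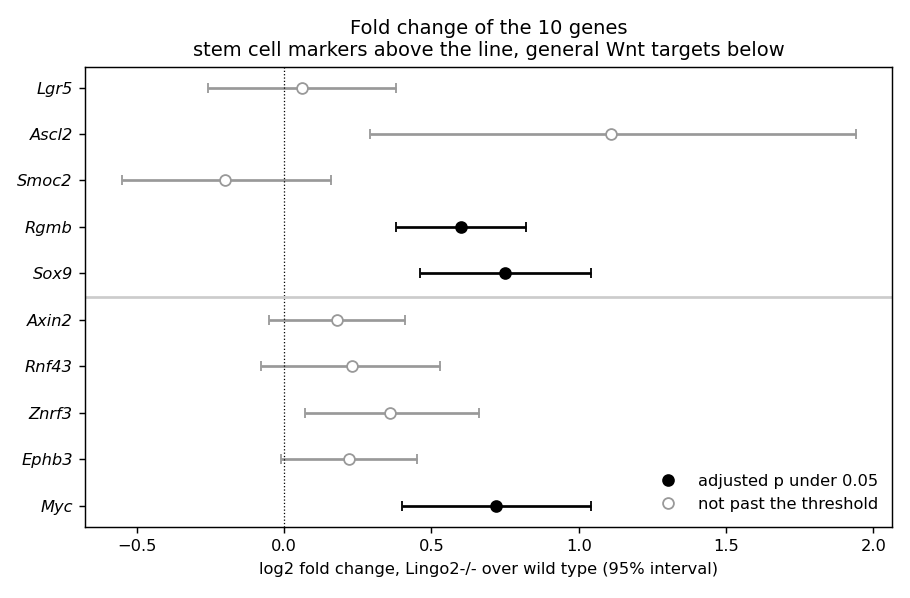
Log2 fold change of each gene in Lingo2-/- over wild type libraries (horizontal axis, with 95% intervals), stem cell markers above the grey line and general Wnt targets below it. Filled points mark Rgmb, Sox9 and Myc, the 3 genes past an adjusted p of 0.05, and the intervals of Lgr5, Smoc2, Axin2, Rnf43 and Ephb3 include 0.

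The negative feedback genes were a little above wild type on average, and none passed the test. Axin2 (chromosome 11, 108920349 to 108950783, plus strand), a scaffold of the complex that degrades beta-catenin, had 22.8, 28.0 and 24.0 CPM in Lingo2-/- replicates 1, 2 and 3. Its wild type levels were 20.8, 22.2 and 22.9 CPM in replicates 1, 2 and 3. Lingo2-/- replicate 1 lay inside the wild type range, and the log2 fold change of 0.18 ± 0.11 had a 95% interval of −0.05 to 0.41 (edgeR adjusted p = 0.396). An antisense gene, Gm11670, covers 3.80% of the exon bases of Axin2, and it had only 1 to 7 reads in Lingo2-/- and 7 to 10 reads in wild type libraries.

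Rnf43 (chromosome 11, 87662722 to 87735539, plus strand) had 37.9, 35.5 and 33.0 CPM in Lingo2-/- replicates 1, 2 and 3, against 23.7, 31.9 and 35.5 CPM in wild type replicates 1, 2 and 3. Wild type replicate 1 alone stood low, and the groups overlapped (log2 fold change 0.23 ± 0.14, 95% interval −0.08 to 0.53, edgeR adjusted p = 0.412). Without wild type replicate 1 the log2 fold change was 0.07.

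Znrf3 (chromosome 11, 5276324 to 5444847, minus strand), the partner of Rnf43, had 10.4, 10.6 and 11.4 CPM in Lingo2-/- replicates 1, 2 and 3, against 7.49, 8.75 and 8.93 CPM in wild type replicates 1, 2 and 3. Here the groups did not overlap, yet the difference was not called (0.36 ± 0.14, 95% interval 0.07 to 0.66, edgeR adjusted p = 0.179). Of the 10 genes, 5 had every Lingo2-/- library above every wild type library, namely Ascl2, Rgmb, Sox9, Znrf3 and Myc. The same held for 12.3% of all tested genes.

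Ephb3 (chromosome 16, 21204755 to 21223305, plus strand), an ephrin receptor that keeps cells in place along the crypt axis, had 31.9, 37.1 and 29.2 CPM in Lingo2-/- replicates 1, 2 and 3. In wild type replicates 1, 2 and 3 it had 29.9, 27.3 and 27.0 CPM. Lingo2-/- replicate 3 lay inside the wild type range (0.22 ± 0.11, 95% interval −0.01 to 0.45, edgeR adjusted p = 0.292). Its relative Ephb2, likewise a Wnt target, was at 0.20 ± 0.10 (edgeR adjusted p = 0.308).

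Myc (chromosome 15, 61985391 to 61990374, plus strand), a transcription factor of growth and proliferation, rose. It had 14.7, 11.3 and 12.5 CPM in Lingo2-/- replicates 1, 2 and 3, against 6.75, 8.19 and 8.55 CPM in wild type replicates 1, 2 and 3. Every Lingo2-/- library was above every wild type library (log2 fold change 0.72 ± 0.15, 95% interval 0.40 to 1.04, edgeR adjusted p = 0.0266). The call held without wild type replicate 3 (edgeR adjusted p = 0.0267). It was lost without any other library, with edgeR adjusted p = 0.100, 0.0535 and 0.0789 without Lingo2-/- replicates 1, 2 and 3 and 0.0720 and 0.0569 without wild type replicates 1 and 2.

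In the authors' deposited table the same 3 genes had an adjusted p under 0.05, Rgmb (log2 fold change 0.61, adjusted p = 0.000762), Sox9 (0.76, adjusted p = 0.000578) and Myc (0.73, adjusted p = 0.00677). That table is made from the same libraries. Of its 14338 genes with an adjusted p, it calls 1.90% higher and 2.80% lower.

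**Figure D3:**
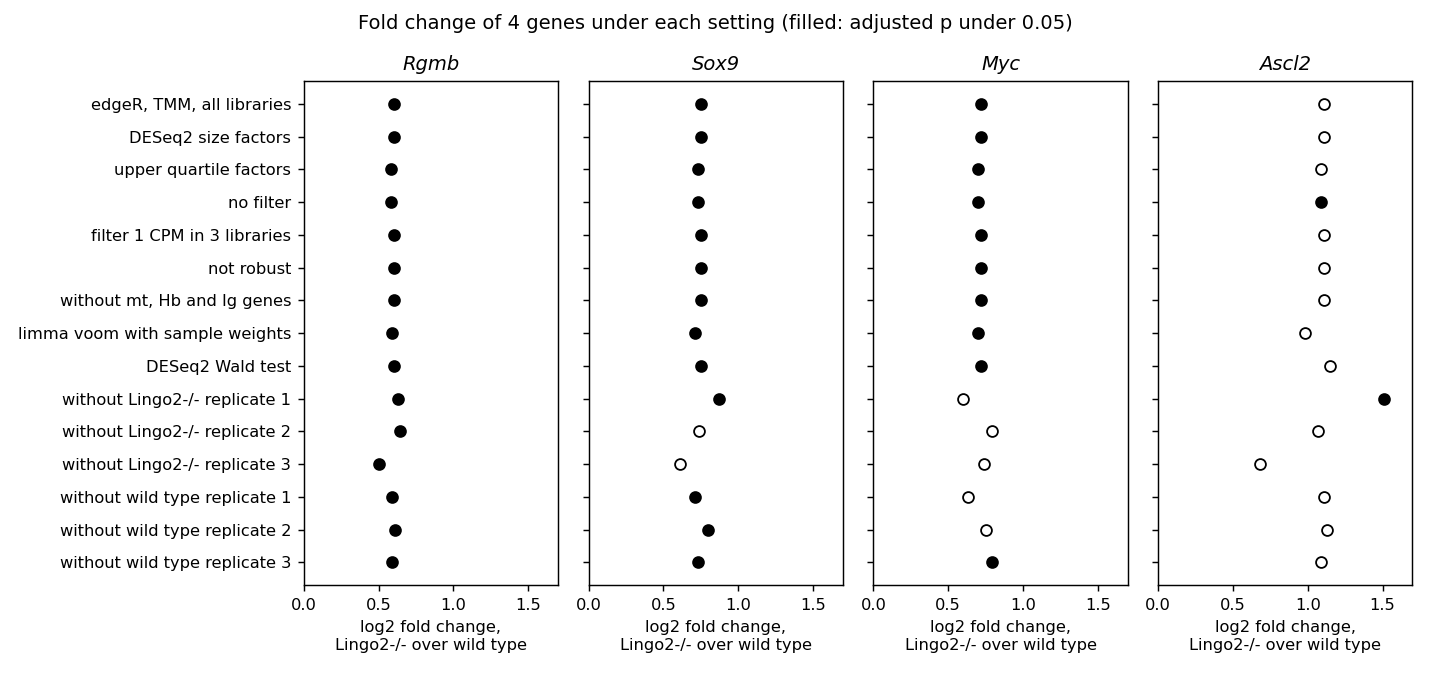
Log2 fold change (horizontal axes) of Rgmb, Sox9, Myc and Ascl2 in Lingo2-/- over wild type libraries under 15 settings, of which the lowest 6 each leave out 1 library. The 15 are the main fit and the alternatives except the fit with the replicate number as a block, in which Myc was not called. Filled points have an adjusted p under 0.05, and all 15 points of each gene lie above 0.

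Set against each other, the 5 stem cell markers had a median log2 fold change of 0.60 and the 5 general Wnt targets one of 0.23. This contrast depends on the class of Sox9, since with Sox9 counted among the targets the medians were 0.33 for the markers and 0.29 for the targets. The markers ranged from −0.20 for Smoc2 to 1.11 for Ascl2, while the targets ranged from 0.18 for Axin2 to 0.72 for Myc. The higher median of the markers thus came from Ascl2, Rgmb and Sox9 and not from Lgr5 or Smoc2. Summed per kilobase of exon (RPKM), the markers stood at 12.8, 14.6 and 17.6 in Lingo2-/- replicates 1, 2 and 3 and at 10.7, 10.7 and 10 in wild type replicates 1, 2 and 3. The targets summed to 21.4, 21.6 and 19.8 RPKM in Lingo2-/- replicates 1, 2 and 3 and to 15.3, 17.1 and 17.9 RPKM in wild type replicates 1, 2 and 3. Both sums were higher in each Lingo2-/- library than in any wild type library. The markers' share of the total was 37.3%, 40.4% and 47.0% in Lingo2-/- replicates 1, 2 and 3 and 41.1%, 38.4% and 35.8% in wild type replicates 1, 2 and 3, so that the shares overlapped. Lgr5, Ascl2 and Smoc2 without the called pair, a subset chosen after its values were seen, summed to 3.09 to 5.10 RPKM in Lingo2-/- and 3.31 to 4.13 RPKM in wild type libraries.

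In level per exon length the genes fell into tiers. In Lingo2-/- libraries Sox9 was highest (5.63 ± 0.958 RPKM, SD, n = 3), followed by Rnf43, Rgmb, Ephb3, Myc and Axin2 (4.53 ± 0.494 RPKM), and each of these 6 overlapped with its neighbour in the order. Smoc2 followed at 2.15 ± 0.362 RPKM, apart from both neighbours. Znrf3, Ascl2 and Lgr5 were lowest, at 1.37 ± 0.0706, 1.29 ± 0.643 and 0.693 ± 0.0343 RPKM. In wild type libraries the order was Rnf43 (4.63 ± 0.928 RPKM), Ephb3, Axin2, Rgmb, Sox9, Myc, Smoc2, Znrf3 (1.06 ± 0.0997 RPKM), Lgr5 (0.664 ± 0.0438 RPKM) and Ascl2 (0.563 ± 0.0118 RPKM). Sox9 was thus at rank 1 in Lingo2-/- and at rank 5 in wild type libraries, where it stood at 3.33 ± 0.228 RPKM. The wild type ranges of Axin2 and Rgmb, of Smoc2 and Znrf3, of Znrf3 and Lgr5 and of Lgr5 and Ascl2 did not overlap, and the other neighbours in that order overlapped. The narrow range of Ascl2 rests on 20 to 25 reads per wild type library and does not include counting error.

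The genes did not move as 1 block within a genotype. Among Lingo2-/- libraries, replicate 3 had the highest level for 6 genes, which included all 5 stem cell markers, while replicate 1 was highest for Rnf43 and Myc and replicate 2 for Axin2 and Ephb3. Among wild type libraries, replicate 1 was lowest for 7 of the 10 genes and highest for Smoc2 and Ephb3. The coefficient of variation was largest for Ascl2 in Lingo2-/- libraries (50%, against 2.10% in wild type) and for Rnf43 in wild type libraries (20%, with 6.79% in Lingo2-/-). The Ascl2 values rest on 15 to 27 reads in Lingo2-/- and 20 to 25 reads in wild type libraries. Counts that low carry a large counting error, so the 2 values cannot show that its spread differs between genotypes.

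By position, 4 of the 10 genes, Sox9, Axin2, Rnf43 and Znrf3, lie on chromosome 11, which holds 8.25% of tested genes, and Smoc2 and Rgmb lie on chromosome 17. Promoter windows of 300 bases, from 250 before to 50 after a transcript start, were found in RefSeq (GRCm38.p6) for 5 of the 10 genes, Ascl2, Rgmb, Axin2, Rnf43 and Ephb3, in 8 windows. The TCF motif was searched as CTTTGAT and CTTTGAA on both strands. None of the 8 windows holds either, against 8.65% of all 32841 windows, which says only that these letters are not in these windows. The 250 bases before the start are printed for Rgmb, which rose, for Axin2, which was not called, and for Ascl2, which varied most between Lingo2-/- libraries. Capitals mark CpG dinucleotides, and Rgmb is shown at the most upstream of its 3 RefSeq starts, chr17:15831247-15831496, minus strand. Axin2 is at chr11:108920099-108920348, plus strand, and Ascl2 at chr7:142969265-142969514, minus strand.
Rgmb: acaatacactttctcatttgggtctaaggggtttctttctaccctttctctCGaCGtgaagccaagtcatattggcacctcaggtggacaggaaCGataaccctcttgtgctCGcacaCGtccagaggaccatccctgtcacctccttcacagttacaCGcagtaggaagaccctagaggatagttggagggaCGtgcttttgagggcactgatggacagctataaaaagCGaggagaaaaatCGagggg
Axin2: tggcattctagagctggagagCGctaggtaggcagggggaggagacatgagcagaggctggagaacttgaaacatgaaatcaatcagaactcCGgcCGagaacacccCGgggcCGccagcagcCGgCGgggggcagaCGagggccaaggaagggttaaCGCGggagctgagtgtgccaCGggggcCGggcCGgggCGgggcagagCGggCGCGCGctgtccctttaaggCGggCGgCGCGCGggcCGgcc
Ascl2: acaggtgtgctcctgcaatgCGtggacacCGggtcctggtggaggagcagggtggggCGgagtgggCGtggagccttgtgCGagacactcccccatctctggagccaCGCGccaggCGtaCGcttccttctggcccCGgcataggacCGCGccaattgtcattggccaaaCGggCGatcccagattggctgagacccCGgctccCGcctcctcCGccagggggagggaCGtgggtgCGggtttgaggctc
These stretches hold 9 CpG in Rgmb, 24 in Axin2 and 19 in Ascl2, at 50%, 69.2% and 67.6% G and C. Over the whole windows, CpG stood at 0.828, 0.886 and 0.685 of the number that base composition gives in Rgmb, Axin2 and Ascl2, against a median of 0.384 over all windows. By this ratio Rgmb, which was called, and Axin2, which was not, both stood above the median. In G and C the Rgmb window at the printed start (54%) was near the median of 52.7% over all windows, while the Axin2 window was at 70%. The windows at the other starts of Rgmb had ratios of 1.03 and 0.816 and stood at 66% and 65.3% G and C. The low G and C of Rgmb thus held for the printed start alone.

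Upstream of the 10 genes, transcripts of Wnt ligands and of the proteins that secrete them had no member past the edgeR test, with 3 lower and none higher at an unadjusted p under 0.05. Of 21 listed genes 9 passed the filter, 8 of them with a log2 fold change below 0, and the median was −0.68. Wnt2b, a stromal Wnt ligand, was at 6.66 ± 1.67 CPM in Lingo2-/- and 11.6 ± 2.99 CPM in wild type libraries (−0.84 ± 0.24, edgeR adjusted p = 0.106). It was called by DESeq2 (adjusted p = 0.0295), the 1 listed gene that was, and by edgeR when wild type replicate 3 was left out (−1.04, adjusted p = 0.0159). Wls, the carrier that brings Wnt proteins to the cell surface, was at 60.0 ± 1.54 CPM in Lingo2-/- and 73.1 ± 7.60 CPM in wild type libraries (−0.28 ± 0.10, edgeR adjusted p = 0.139).

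Of the R-spondins and their receptors, Rspo1 had 6.47, 10.8 and 6.47 CPM in Lingo2-/- replicates 1, 2 and 3 and 20.8, 19.4 and 8.38 CPM in wild type replicates 1, 2 and 3. It was not called (−1.06 ± 0.42, edgeR adjusted p = 0.266) but passed in DESeq2 (adjusted p = 0.0143) and, with wild type replicate 3 left out, in edgeR (−1.37, adjusted p = 0.00445). That wild type library also had the lowest summed fibroblast markers of its genotype, and fibroblasts are a source of R-spondins and Wnt ligands; the part of stromal RNA in these levels was not tested. Lgr4, the receptor that shares R-spondins with Lgr5, was at 102 ± 14.1 CPM in Lingo2-/- and 128 ± 30.5 CPM in wild type libraries (−0.33 ± 0.17, edgeR adjusted p = 0.331). Lgr6 had no read in any Lingo2-/- library and 1 to 5 reads in wild type libraries.

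No Wnt receptor passed among 15 tested genes in edgeR, DESeq2 or limma voom (median −0.23), and 1 was lower at an unadjusted p under 0.05. The co-receptors Lrp6 and Lrp5 had the smallest p-values, at −0.27 ± 0.10 (edgeR adjusted p = 0.167) and 0.21 ± 0.10 (edgeR adjusted p = 0.317). None of 5 tested inhibitors outside the cell passed with any of the 3 tools (median −0.34), nor at an unadjusted p under 0.05, the nearest being Sfrp2 (−0.89 ± 0.41, edgeR adjusted p = 0.273) and Dkk3 (−0.69 ± 0.43, edgeR adjusted p = 0.436).

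Inside the cell, 1 of 15 tested genes of the destruction complex and its transducers rose, and none fell (median 0.03). This was Dvl1, a Dishevelled protein that carries the signal from Frizzled, at 59.2 ± 2.42 CPM in Lingo2-/- and 41.3 ± 4.84 CPM in wild type libraries (0.52 ± 0.10, edgeR adjusted p = 0.0189). Its call was lost without any 1 Lingo2-/- library (edgeR adjusted p = 0.0618 to 0.0810). Axin1, the constitutive counterpart of Axin2, was at −0.10 ± 0.09 (edgeR adjusted p = 0.581).

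Among the TCF factors and their nuclear partners 1 of 15 tested genes rose and none fell (median −0.03). Tle1, a co-repressor that binds TCF factors, had 39.8, 41.1 and 45.3 CPM in Lingo2-/- replicates 1, 2 and 3, against 25.6, 26.6 and 26.8 CPM in wild type replicates 1, 2 and 3 (0.67 ± 0.09, edgeR adjusted p = 0.00237). It kept its call without any 1 library (edgeR adjusted p = 0.00404 to 0.0169).

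Of 18 tested Wnt targets outside the 10 genes none was called higher by edgeR and 1 was lower, with a median of −0.18. A log2 fold change above 0 was found for 7 of them and below 0 for 11. At an unadjusted p under 0.05 there were 2 higher and 2 lower, and DESeq2 called 1 higher and 1 lower. Furthest from 0 was Bambi, at 5.29 ± 2.10 CPM in Lingo2-/- and 2.65 ± 0.264 CPM in wild type libraries (1.04 ± 0.26, edgeR adjusted p = 0.0562). Id2, an inhibitor of helix-loop-helix factors that is also a BMP target, fell to 10.4 ± 0.639 CPM in Lingo2-/- libraries, against 17.5 ± 0.956 CPM in wild type libraries (−0.74 ± 0.11, edgeR adjusted p = 0.00525), and did so without any 1 library. None of 17 other crypt base and progenitor genes was called by edgeR or limma voom (median 0.16), with 3 higher and 3 lower at an unadjusted p under 0.05. The smallest p-values there belonged to the polycomb gene Bmi1 (−0.53 ± 0.13, edgeR adjusted p = 0.0558), which passed when wild type replicate 3 was left out (adjusted p = 0.0411), and to Fstl1, which stromal cells also make (−1.43 ± 0.36, edgeR adjusted p = 0.0996, and 0.000574 with that library left out), which DESeq2 called (adjusted p = 0.000163).

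In the BMP pathway, to which Rgmb belongs, 1 of 21 tested genes rose and 1 fell by edgeR (median −0.14). A log2 fold change below 0 was found for 16 of them and above 0 for 5. At an unadjusted p under 0.05, 1 was higher and 4 were lower, and DESeq2 called 1 higher and 2 lower. Furthest from 0 was the ligand Bmp4, at 0.701 ± 0.291 CPM in Lingo2-/- and 2.81 ± 1.41 CPM in wild type libraries (−2.10 ± 0.54, edgeR adjusted p = 0.0762). Id1, a BMP target, rose to 78.9 ± 8.32 CPM in Lingo2-/- libraries, against 54.0 ± 5.09 CPM in wild type libraries (0.54 ± 0.11, edgeR adjusted p = 0.0189), while its relative Id2 fell. The call of Id1 was lost without Lingo2-/- replicate 2 or 3 or wild type replicate 2 (edgeR adjusted p = 0.102, 0.105 and 0.0624). Rgma, the relative of Rgmb, was low, at 1.48 ± 0.776 CPM in Lingo2-/- and 2.36 ± 0.778 CPM in wild type libraries (−0.77 ± 0.41, edgeR adjusted p = 0.336). Smoc1, the relative of Smoc2, had 0 to 5 reads in Lingo2-/- and 5 to 13 reads in wild type libraries and was not tested.

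**Figure D4:**
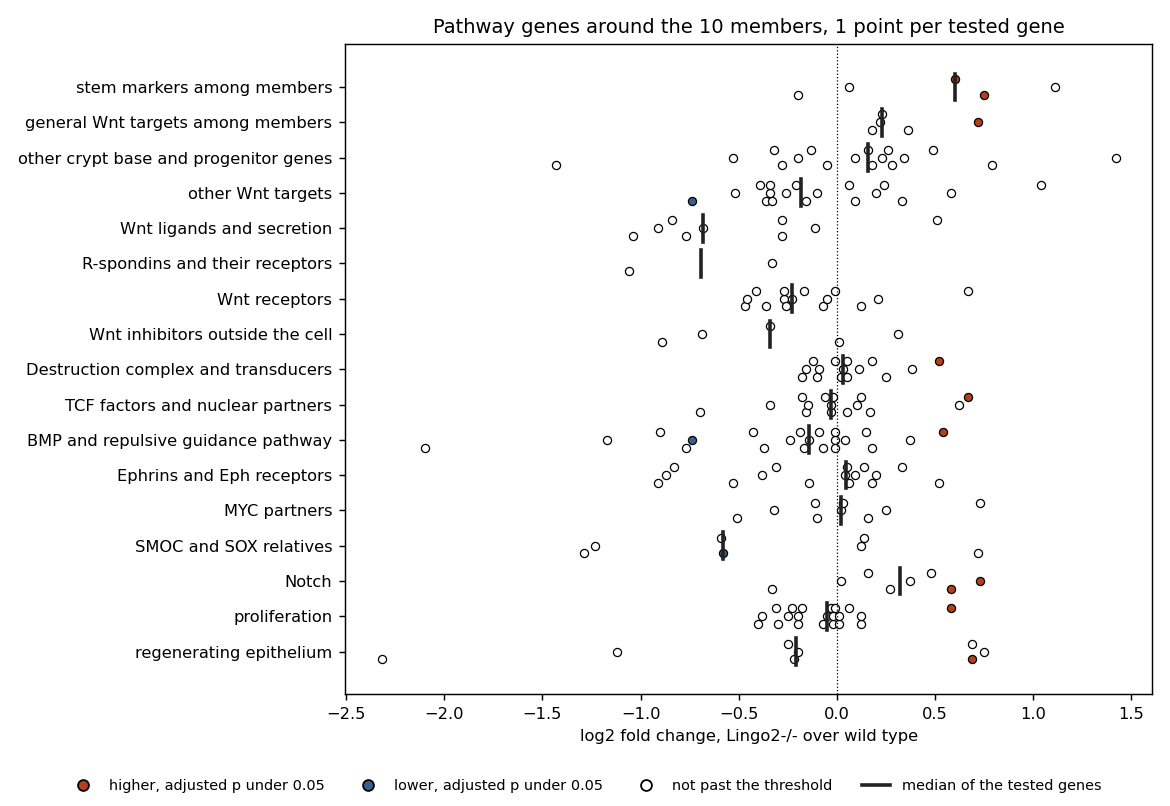
Log2 fold change in Lingo2-/- over wild type libraries (horizontal axis) of each tested gene of the pathway lists, 1 row per list, with a bar at each median and filled points for genes past an adjusted p of 0.05. The medians are 0.60 and 0.23 for the stem cell markers and general Wnt targets among the 10 genes, and −0.68 for Wnt ligands and secretion.

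The fraction carried epithelial markers throughout, with a summed level over 9 markers of 4142 to 4916 CPM in Lingo2-/- and 4147 to 5030 CPM in wild type libraries, and no marker called by edgeR, DESeq2 or limma voom (1 lower at an unadjusted p under 0.05). Surface colonocyte markers summed to 7790 to 10343 CPM in Lingo2-/- and 9759 to 12731 CPM in wild type libraries, with none of 12 called by edgeR (1 higher and 1 lower at an unadjusted p under 0.05, and 1 higher by DESeq2). T cell and intraepithelial lymphocyte markers summed to 189.8 to 218 CPM in Lingo2-/- and 447 to 538 CPM in wild type libraries, and all 12 were lower, with 10 to 12 called when each library was left out in turn. Of 12 fibroblast markers 1 was lower, Mfap5 (−1.75 ± 0.39, edgeR adjusted p = 0.0434), with a median of −1.15. Its call was lost in limma voom (adjusted p = 0.0804), without robust dispersions (edgeR adjusted p = 0.0523) and without Lingo2-/- replicate 2 or 3 or wild type replicate 1 or 2 (edgeR adjusted p = 0.100 to 0.151). DESeq2 called 2 fibroblast markers lower and limma voom none, and 5 were lower at an unadjusted p under 0.05. No marker of any list was at 0 in every library. Enteroendocrine markers summed to 247 to 399 CPM in Lingo2-/- and 339.7 to 454 CPM in wild type libraries, with 1 of 6 lower, the hormone gene Gcg (−0.71 ± 0.12, edgeR adjusted p = 0.00865). Smooth muscle markers summed to 10.6 to 14.3 CPM in Lingo2-/- and 11.2 to 14.6 CPM in wild type libraries, and endothelial markers to 14.5 to 15.3 CPM in Lingo2-/- and 13.1 to 16.6 CPM in wild type libraries, with Vwf higher (0.96 ± 0.18, edgeR adjusted p = 0.0169). Vwf lost its call without any 1 Lingo2-/- library or wild type replicate 2 (edgeR adjusted p = 0.0522 to 0.0719). Tuft cell markers summed to 56.9 to 69.4 CPM in Lingo2-/- and 50.8 to 57.3 CPM in wild type libraries. Markers of Paneth cells and small intestine, 4 of 5 tested with a log2 fold change above 0 and none called by edgeR (4 higher and 1 lower at an unadjusted p under 0.05, 3 higher by DESeq2), summed to 53.4 to 123 CPM in Lingo2-/- and 30.0 to 49.2 CPM in wild type libraries. The part of these other cells in the levels of the 10 genes was not tested.

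**Figure D5:**
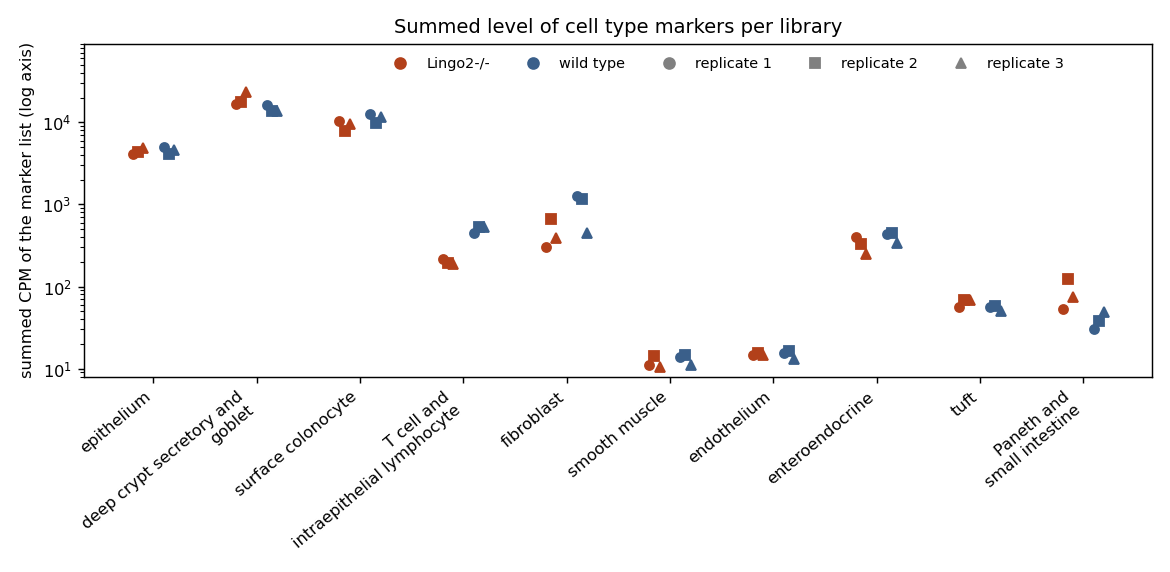
Summed CPM of each cell type marker list (vertical axis, log scale) in the 3 Lingo2-/- libraries and the 3 wild type libraries. The T cell and intraepithelial lymphocyte sums are 189.8 to 218 CPM in Lingo2-/- and 447 to 538 CPM in wild type libraries, and the epithelial sums overlap.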

How the data were processed

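Total RNA of the colon epithelial fraction was sequenced in 6 libraries. Per the labels' protocols, a stranded total RNA kit with removal of ribosomal RNA was used. The submitters' processing notes name Trimmomatic 0.39, STAR, HTSeq, DESeq2 and build GRCm38, and the sources used here give neither annotation nor strand setting. Raw read counts per gene were deposited, and the table's 5 summary lines entered no library size or test. The authors' deposited comparison gives a normalized signal per library, which was each count multiplied by a library's own factor (100% of values, tolerance 1e-06), and their mean signal, log2 fold changes, test score and p-values.

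The test was edgeR 4.0.16 (R 4.3.3; filterByExpr, TMM, robust quasi-likelihood F, genotype only) on 16757 genes, with Benjamini-Hochberg adjustment over all of them and a threshold of 0.05. Each SE is the log2 fold change over the root of F. CPM errors are SDs. RPKM is CPM per kilobase of merged GENCODE M21 exons (GRCm38). Symbols of 45229 genes came from a reference list of gene names, or from GENCODE where that list had none. The script was tested on simulated counts. The genes, lists and tests were chosen with earlier results of these data known. Named are the 10 genes, Lingo2, relatives of the 10, and in each pathway list the called genes (at most 6) or the 2 of smallest p. Of the cell type marker lists, given as counts and sums, only some called genes and Myh11 are named. Muc2, Agr2, Zg16, Tff3, Clca1, Fcgbp, Reg4, Bambi, Bmp4 and Ccn1 are named besides these. Libraries of 1 genotype differed beyond sampling noise (chi-square over genes, 6.08 to 14.2 per degree of freedom). Alternatives were 15 settings, with DESeq2 1.42.0 and limma 3.58.1 (voom) among them. Floors cover counting error only.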

Additional observations from a re-analysis of the deposited data

How the results depend on the processing

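The count of the 10 genes called higher was 2 to 4 under the 9 settings that keep all libraries and 1 to 3 when each library was left out in turn. It was 1, Rgmb alone, without Lingo2-/- replicate 2 or 3. None was called lower under any of the 15 settings, and the median of the 10 genes lay between 0.27 and 0.38. All 10 genes kept their direction under all 15 settings. Without mitochondrial, haemoglobin and immunoglobulin genes, Rgmb (0.60, edgeR adjusted p = 0.00798), Sox9 (0.75, edgeR adjusted p = 0.0108) and Myc (0.72, edgeR adjusted p = 0.0263) were called. The rest of the 10 genes were not. Over all genes, 430 were called, with 1493 under no filter, 656 by the DESeq2 Wald test and 174 to 674 when each library was left out in turn (174 and 180 without Lingo2-/- replicates 2 and 3, 674 without wild type replicate 3). The cause was not tested. Of the crypt base and pathway genes, Ascl2, Bmi1, Fstl1, Wnt2b, Lgr4, Sfrp2, Efna3, Max and Mxi1 were also called with no filter. Among the other named genes 1 changed direction, the smooth muscle gene Myh11, which was at 0.36 and ranged from −0.15 (without Lingo2-/- replicate 2) to 0.70 when each library was left out in turn. With the replicate number as a block, 360 genes and 2 of the 10, Rgmb and Sox9, were called, and Myc was not (edgeR adjusted p = 0.0595). Same-numbered libraries deviated from their group means with correlations of −0.126, 0.128 and −0.022 across genes. Libraries of different numbers had correlations of −0.156 to 0.187. With 3 libraries per genotype these values cannot decide whether the numbers pair libraries, which the labels do not say. Of the scalings, upper quartile factors moved the median of all genes most, by −0.020 on the log2 scale. With Sox9 counted among the targets, an alternative chosen after seeing the data, the median of the stem cell markers was 0.33 and that of the targets 0.29. Ascl2 had the fewest reads of the 10 genes, 15 to 27 in Lingo2-/- and 20 to 25 in wild type libraries.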

Other observations

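Of 8 tested Notch pathway genes 2 rose and none fell (median 0.32). Both are ligands, Jag1 at 18.0 ± 0.929 CPM in Lingo2-/- and 12.1 ± 1.06 CPM in wild type libraries (0.58 ± 0.12, edgeR adjusted p = 0.0215), and Dll4 at 8.10 ± 1.20 CPM in Lingo2-/- and 4.90 ± 0.387 CPM in wild type libraries (0.73 ± 0.17, edgeR adjusted p = 0.0423). Dll4 lost its call without any 1 library (edgeR adjusted p = 0.0665 to 0.160). Jag1 lost it without wild type replicate 1 or any 1 Lingo2-/- library (edgeR adjusted p = 0.0629 to 0.0724). Of 21 proliferation genes 1 rose, the mitotic kinase Plk1 (0.58 ± 0.13, edgeR adjusted p = 0.0480), and the median was −0.05. A log2 fold change below 0 was found for 15 of them and above 0 for 6. At an unadjusted p under 0.05, 1 was higher and 4 were lower, and DESeq2 called 1 higher and none lower. The call of Plk1 was lost without Lingo2-/- replicate 2 or 3 or wild type replicate 1 or 3 (edgeR adjusted p = 0.162, 0.161, 0.0894 and 0.0756), and in limma voom (adjusted p = 0.0678).

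Of 9 partners and relatives of Myc none passed in edgeR (median 0.02), with 2 lower at an unadjusted p under 0.05. Max, the partner that Myc binds DNA with, was at 75.0 ± 1.88 CPM in Lingo2-/- and 107 ± 20.8 CPM in wild type libraries (−0.51 ± 0.13, edgeR adjusted p = 0.0657), and was called by DESeq2 (adjusted p = 0.0238) and, with wild type replicate 2 left out, by edgeR (−0.66, adjusted p = 0.00541). Among relatives of Sox9 and Smoc2, Sox6 fell to 14.5 ± 1.74 CPM in Lingo2-/- libraries, against 21.6 ± 2.70 CPM in wild type libraries (−0.58 ± 0.13, edgeR adjusted p = 0.0386), a call kept in leave-out fits only without wild type replicate 1 (edgeR adjusted p = 0.0324). It was lost in limma voom (adjusted p = 0.0549). In the list of regenerating epithelium Cd55, which protects cells from complement, rose (0.69 ± 0.11, edgeR adjusted p = 0.00805) among 8 tested genes with a median of −0.21, and lost its call without Lingo2-/- replicate 2 (edgeR adjusted p = 0.0535). In this list 3 genes were higher and 1 lower at an unadjusted p under 0.05, and DESeq2 called 2 higher and 1 lower. Furthest from 0 was Ccn1, at 2.42 ± 0.383 CPM in Lingo2-/- and 12.0 ± 7.50 CPM in wild type libraries (−2.32 ± 0.55, edgeR adjusted p = 0.105). Of 16 ephrins and Eph receptors none passed in edgeR (median 0.05; 1 higher and 2 lower at an unadjusted p under 0.05, and 1 lower by DESeq2), with Efna3 at −0.83 ± 0.21 (edgeR adjusted p = 0.0584, and 0.0247 without wild type replicate 2) and Ephb4 at 0.33 ± 0.10 (edgeR adjusted p = 0.113).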
